A study of Rattus norvegicus and Mus musculus with 10 samples.

Results

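The genes described here encode the proteins of the cytosolic ribosome. They were chosen by symbol: Rpl or Rps followed by a digit, together with Rplp0, Rplp1, Rplp2, Rpsa and Fau, without pseudogene names and without the Rps6k kinases, which are signalling enzymes. The rule found 108 entries among 32883 genes of the rat table and 87 among 31053 genes of the mouse table. In the rat, 66 entries belonged to the large and 42 to the small ribosomal subunit, and in the mouse 52 and 35. Gene models that carry a ribosomal protein's name with a suffix (such as Rps18l1 or Rpl22l1) and Rps19bp1, which binds Rps19 and is no part of the ribosome, made up 21 of the rat and 9 of the mouse entries. The rule left out 16 rat and 9 mouse pseudogene names and 10 kinases in each species.

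A ribosome joins a small subunit, which reads the messenger RNA, to a large subunit, which forms the peptide bonds, and a ribosome carries a single copy of most of these proteins. Transcripts of these genes start with a cytosine followed by a run of pyrimidines, the 5′ terminal oligopyrimidine (TOP) motif, through which the kinase complex mTORC1 adjusts their translation together with that of elongation factors. Lymphocytes carry a large share of their messenger RNA in these genes, and neutrophils very little, so the share is a familiar feature of droplet data.

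Immune cells of 6 compartments of naive Lewis rats were profiled with 3′ droplet sequencing (10x version 2 chemistry): CNS, choroid plexus (CP), dura, pia, blood and cerebrospinal fluid (CSF), from 25 rats in the study. Skull dura of C57BL/6 mice was profiled with version 3 chemistry, from 4 pooled unimmunized mice and from 3 pooled mice at the peak of active experimental autoimmune encephalomyelitis (EAE), a model of CNS inflammation induced by immunization. Cells of CNS, dura and CP were sorted for CD45 and against an antibody to it given intravenously, which stains cells inside vessels. Blood was taken from a density gradient, and CSF was not sorted. The protocol lists a sorted tissue called SDM where the sample titles have pia. Ages were not given. Mouse groups follow the titles, because the condition field names EAE for every mouse sample. With 1 pooled sample in each group there is no replicate check and no significance test, and intervals cover counting error only. Of the 10 samples, 2 were B cell receptor libraries and were not used.

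The 6 rat libraries held 2272 to 4953 annotated cells with a median of 981 (pia) to 2704 (CNS) UMIs (unique molecular identifiers, 1 per captured transcript). The naive mouse library had 2776 cells with a median of 4163.5 UMIs, and the EAE library 4579 cells with a median of 11743 and none below 5722. Annotated barcodes shared by a pair of libraries numbered 8 to 36 in the rat and 7 in the mouse. Cluster names are the authors', doublets were kept and no doublet caller was run. The CSF library stood apart from the other rat libraries in the levels of some ribosomal protein entries, as described below. The CSF shares and the CSF comparison are therefore given with and without those entries. The 36 cells of cluster Bc2 in the CNS held 0 UMIs of the B cell markers and 8728 CPM (counts per 1000000 UMIs) of microglia markers, so they are named here only by their cluster.

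Sequences around the transcription start are shown first, for 5 rat genes on which later results turn. Each line runs from 70 bases before to 20 bases after the start, 5′ to 3′ on the transcribed strand, from RefSeq on build GRCr8. Capitals mark CTTTC or CTTCC within 10 bases before to 15 bases after the start, and CCGGAAG, the core of an ETS factor motif, on either strand, where it reads CTTCCGG if reversed. Rps27 (chr2:177964587-177964676, minus strand) and Rpl37a (chr9:81748021-81748110, plus strand) were among the most abundant members, Rpl39 (chrX:121195877-121195966, minus strand) differed most between pia and CNS, Rpl35a (chr11:81235002-81235091, minus strand) was far higher in the CSF library, and Rpl4 (chr8:73566407-73566496, plus strand) is a long member shown beside the short ones.
Rps27: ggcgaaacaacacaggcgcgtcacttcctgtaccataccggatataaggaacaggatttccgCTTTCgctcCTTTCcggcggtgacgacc
Rpl37a: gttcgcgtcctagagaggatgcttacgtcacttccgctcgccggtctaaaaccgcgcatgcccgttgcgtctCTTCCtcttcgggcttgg
Rpl39: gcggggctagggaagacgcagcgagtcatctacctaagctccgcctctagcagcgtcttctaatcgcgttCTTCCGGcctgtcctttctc
Rpl35a: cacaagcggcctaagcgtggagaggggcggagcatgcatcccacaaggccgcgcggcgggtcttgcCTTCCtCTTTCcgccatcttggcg
Rpl4: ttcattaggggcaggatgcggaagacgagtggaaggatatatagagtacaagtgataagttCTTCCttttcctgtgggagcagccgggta

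Of the 76 rat symbols that name a ribosomal protein without a suffix, 61 had a promoter in the table. CTTTC lay in the start window of 22 of them (36.1%), against 2.75% of all 33469 promoters. CTTCC lay there in 19 (31.1%), against 4.74%, and at least 1 of these short pyrimidine words in 33 (54.1%), against 7.30%. CCGGAAG, searched on both strands of 300 bases and overlapping CTTCC in its reversed form, was in 20 (32.8%), against 8.75%. These matches are letters in a window and show no binding.

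Over all annotated cells, 106 of 108 rat entries and 86 of 87 mouse entries had at least 1 UMI. Mouse Rpl10l, a copy of Rpl10 known from testis, had 0, which allows up to 0.0404 CPM. The most abundant rat members were Rpl41, the smallest ribosomal protein, at 9629 CPM, Rpl37a at 7026, Rps27 at 6610, Rpl35 at 6576 and Rps14 at 5239, which together held 22.2% of the members' UMIs. In the mouse they were Fau, which encodes a ubiquitin-like protein fused to eS30, at 6373 CPM, Rps24 at 5970, Rpl13 at 4595, Rpl23 at 4268 and Rps9 at 4227, together 12.1%. CPM values of a 3′ library are not divided by length, and the level of a gene also depends on how reads of its copies were counted, so the order of genes is a description. Counts were spread over fewer entries in the rat: 47 of 108 entries reached 1000 CPM and 22 stayed under 20 CPM, against 70 and 3 of 87 in the mouse. Several genes that were abundant in the mouse were near 0 in the rat table. Fau had 0.1 CPM, Rplp2, an acidic stalk protein, 4.8 CPM against 2172 in the mouse, Rps19, which is mutated in Diamond-Blackfan anaemia, 9.5 against 2382, and Rps10 11.7 against 3601. In the rat 22 entries shared 10 symbols, and in the mouse 75 of 87 members shared a stretch of 60 bases within their last 300 transcript bases with another annotated gene, 17 of them with another coding gene. Reads of such copies can be divided or discarded in counting, so the level of a single entry is less certain than the sum.

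In the rat the share of all UMIs that came from these genes differed between clusters and, within a cluster, between compartments. CD4 Tc, the CD4 T cell cluster, had the highest share of any cluster of at least 20 cells in each of the 6 libraries: 22.9% in dura (591 cells), 24.7% in CNS (53 cells), 27.4% in pia (495), 27.8% in CP (116), 29.3% in blood (740) and 39.0% in CSF (1531). CD8 Tc ran from 19.8% in dura to 24.2% in pia and 32.5% in CSF. NK cells had 13.0% in CNS (58 cells), 17.3% in blood (155), 18.1% in dura (357), 21.7% in CP (311), 23.1% in pia (164) and 30.4% in CSF (275). Cluster Bc1 had 15.8% in dura, 16.7% in blood and 24.6% in CSF. T cells were thus lowest in dura and NK cells lowest in CNS, and CD4 Tc, CD8 Tc, NK and Bc1 were all highest in CSF. Myeloid clusters were below CD4 Tc in each library and overlapped with NK cells and Bc1. Cluster myeloid1 had 12.9% in dura, 16.4% in CNS, 16.9% in pia, 17.4% in CP, 18.1% in blood and 24.2% in CSF, so that it stood above NK cells in CNS and blood. The cluster named micro, which carried microglia markers in the CNS, had 4.08% there (2974 cells), 10.5% in dura (106), 11.9% in pia (311), 12.1% in blood (20), 12.6% in CSF (120) and 13.2% in CP (162). The 20 blood cells of this cluster held 0 UMIs of the microglia markers. Granulocytes were lowest, with 1.94% in dura and 6.24% in CSF. A higher share of these genes and fewer UMIs of all other genes cannot be told apart in such values.

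**Figure D1:**
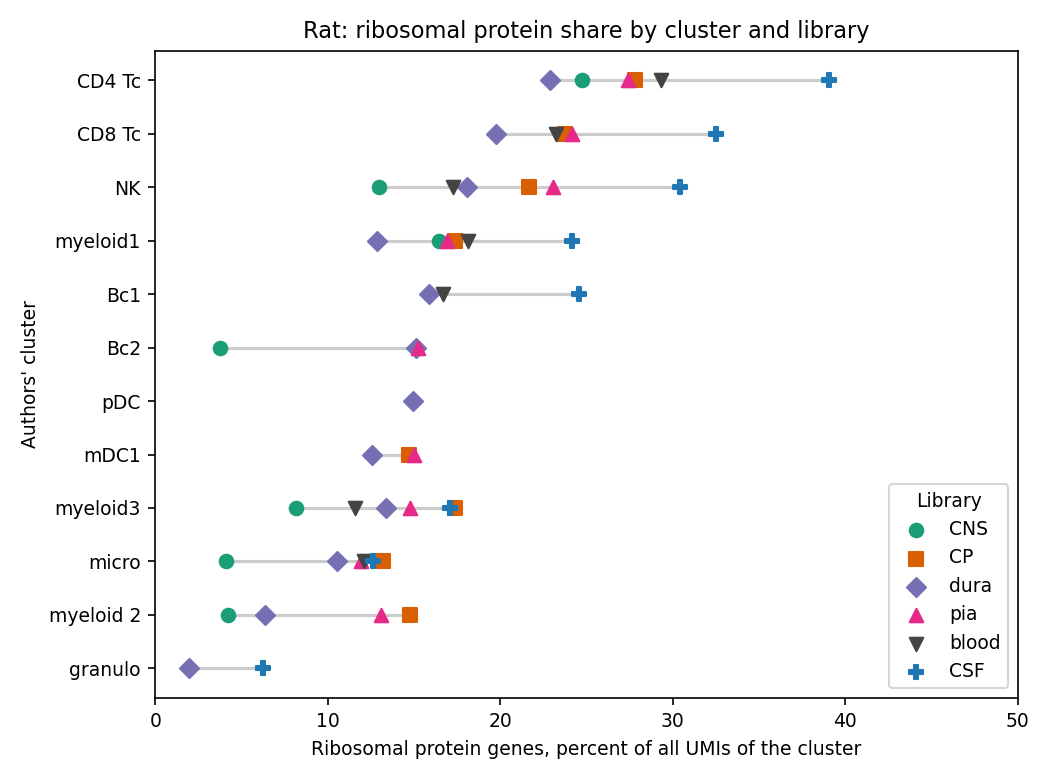
Share of UMIs from ribosomal protein genes in each rat cluster (vertical axis) and library (colour and shape), in percent of all UMIs of the cluster, for groups of at least 20 cells. CD4 Tc is the rightmost cluster in each library, myeloid1 overlaps with NK and Bc1, CSF is the rightmost point in CD4 Tc, CD8 Tc, NK, myeloid1, Bc1 and granulo, and micro, myeloid 2 and Bc2 of the CNS lie near 4%.

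Among cells of 1000 to 2000 UMIs, the share in micro was 3.48% in CNS (410 cells) and 12.4% in pia (110 cells), and in CD4 Tc 26.3% in blood (98 cells) and 37.4% in CSF (722 cells). With all members counted, the gaps were thus present among cells of like depth. Single cells were spread widely around these values. After every cell was thinned to 500 UMIs, with shallower cells left out, which leaves the expected share of a cell as it was, the median cell of micro had 3.6% in CNS (10th to 90th percentile 2.0% to 6.0%) and 11.4% in pia (4.5% to 17.8%). The median CD4 Tc cell had 29.4% in blood (22.4% to 35.0%) and 39.6% in CSF (30.0% to 46.4%). Single cells of the compared libraries thus overlapped, while their medians were far apart. These CSF values include the entries that stood far apart in the CSF library, described below. Without those entries, CD4 Tc over cells of all depths had 33.0% in CSF and 28.6% in blood. The depth bin and the medians of single cells were not computed without them.

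In the CSF library some ribosomal protein entries stood far from their levels in the other libraries. In CD4 Tc, 21 members with at least 100 CPM in a library were at least 5-fold away from all 5 other libraries, 17 of them higher and 4 lower, and no member met this in any other library. All 17 were also at least 5-fold higher in NK cells of CSF than in NK cells of each other library. Rps18, a small-subunit protein of the head, had 13205 CPM in CSF CD4 Tc against 99.2 to 194 in the other 5 libraries. Rpl36 had 7865 against 9.71 to 27.4, and Rpl37 8138 against 333 to 1185. Rpl35a, mutated in some Diamond-Blackfan anaemia, had 3833 in CSF, 4.83 in blood and 0 UMIs in the other 4, where a count of 0 allows 3.24 to 20.5 CPM. In CSF over blood this was 793-fold (431 to 1655). The rule that chose these members fixed that CSF does not overlap with the other libraries.

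Entries with related names went the other way. Rps18l1 had 37.9 CPM in CSF against 1161 to 2443 elsewhere, and Rps19l1 7.16 against 121 to 348. Of the entries that share the symbol Rps4x, which encodes the X-linked form of eS4, ENSRNOG00000003201 had 4200 CPM in CSF against 41.0 to 207, and ENSRNOG00000029574 had 86.3 against 1258 to 2274. Summed over both entries, Rps4x was at 4286 CPM in CSF against 1299 to 2481, and Rps18 with Rps18l1 at 13243 against 1274 to 2609. Pairing entries by name narrowed the gap for these pairs without closing it. Rps19 with Rps19l1 stayed lower, at 17.6 CPM in CSF against 128 to 386. Why the levels of these entries differed was not tested. The 4th lower member, Rpl30, had 142 CPM against 846 to 1500.

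**Figure D2:**
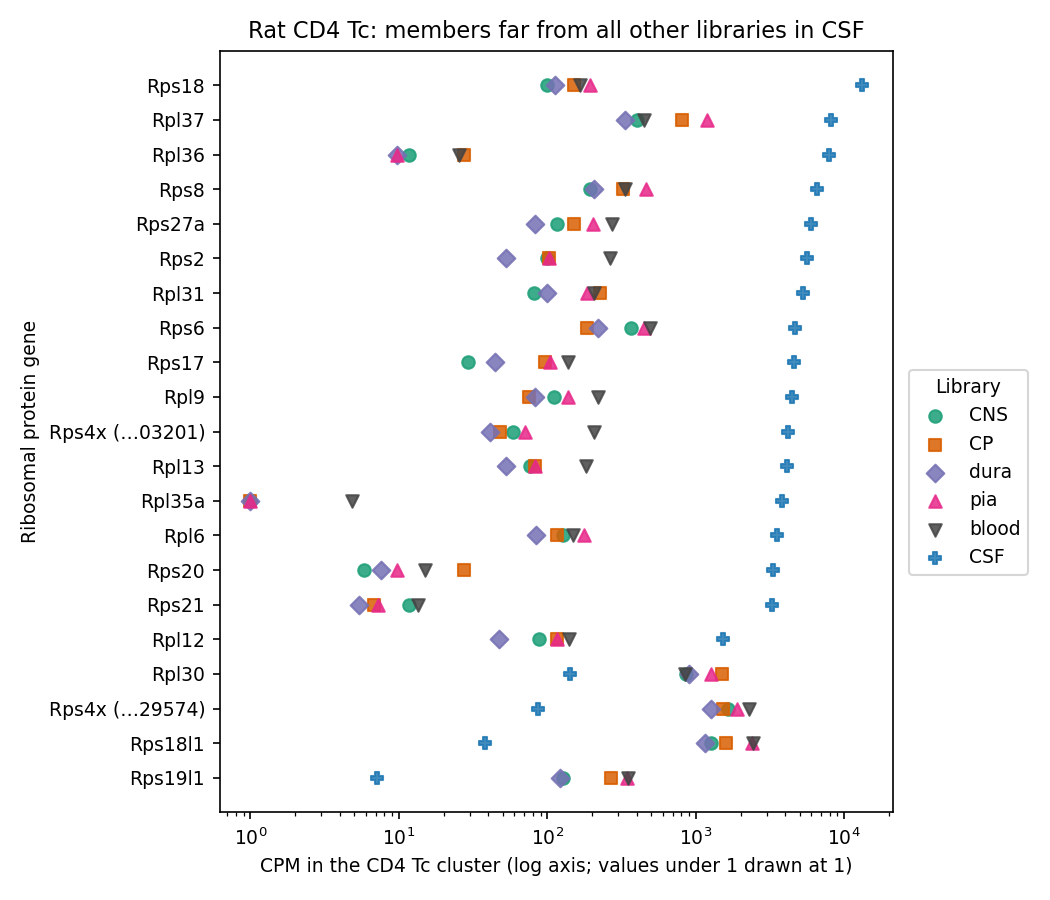
CPM on a log axis of the 21 rat members (vertical axis) that were at least 5-fold higher or lower in CSF than in all 5 other libraries, in the CD4 Tc cluster. CSF points (plus signs) lie to the right for 17 members and to the left for 4, while the other libraries stay together.

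These 21 members held 9.04% of the UMIs of CSF CD4 Tc and 0.492% to 0.941% elsewhere. Without them, the share in CSF was 27.1% in CD8 Tc, 25.1% in NK, 20.3% in Bc1 and 19.7% in myeloid1, still above each other library of the cluster, while micro had 10.1%, below dura (10.4%), pia (11.6%), blood (11.8%) and CP (12.9%). CD4 Tc then had 33.0% of UMIs in CSF and 28.6% in blood, a log2 ratio of 0.20 where all members gave 0.41. With all members counted, large-subunit genes made up 58.3% of member UMIs in CSF CD4 Tc and 65.4% to 66.8% elsewhere. Without the 21 members they made up 62.8% and 66.5% to 67.5%. Genes outside the members stood apart too. Over all genes, 44 were at least 5-fold higher in CSF CD4 Tc, 17 of them members, and 31 lower, 4 of them members. Another library had at most 8 higher and 3 lower. Of the lower genes in CSF, 16 had no gene name. Markers of choroid plexus epithelium (Ttr, Folr1 and Kl) summed to 20733 CPM in CSF CD4 Tc with 3 of 3 detected, against 0 to 671 elsewhere. Their part in the result was not tested. In the CSF over blood comparison of CD4 Tc, 96 members passed the filter of 20 UMIs over both sides, with a median log2 ratio of -0.19 against -0.32 for all genes. Called genes here are those at least 1.5-fold apart with an interval that excludes 1. In CSF over blood 30 members were called higher, against 11.7% of all genes, and 20 lower, against 27.8%. Without the 21 members the count was 13 higher and 16 lower, and the share of all genes was not computed without them. Of 10 other TOP genes, such as Tpt1 (3354 CPM against 5461), 6 were lower and 0 higher.

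Microglia-named cells of the pia differed widely from those of the CNS. These genes held 11.9% of UMIs in pia micro and 4.08% in CNS micro, 2.92-fold (2.89 to 2.95). Of 87 members that passed the filter, 77 were called higher in pia, against 11.5% of all genes, and 0 lower, against 11.5%, with a median log2 ratio of 1.5 against -0.01 over all genes. The other 21 members had too few UMIs to compare. Rpl39, which lines the exit tunnel of the large subunit, had 71.3 CPM in CNS, 378 in dura, 578 in CSF, 838 in CP and 1167 in pia. Its level in pia was 16.4-fold that in CNS (14.2 to 18.8). Rps28, a small-subunit protein near the mRNA exit, had 158 CPM in CNS and 2155 in pia, 13.6-fold higher (12 to 15). Both were lowest in CNS among the 6 libraries.

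Longer members differed less. Rplp0, the base of the large subunit's stalk, had 1365 CPM in CNS and 3220 in pia, and Rpl4, one of the longest members, 497 and 739. Rps15a, a small-subunit protein, went from 55.0 to 627 CPM. The lowest log2 ratios were those of Rps4y2 (-0.70), Rps4x ENSRNOG00000003201 (-0.20), Rpl5l1 (-0.09) and Rps19bp1 (0.26), and the intervals of all 4 included 1. Large-subunit members had a median of 1.46 and small-subunit members of 1.62, so the difference ran through both subunits.

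**Figure D3:**
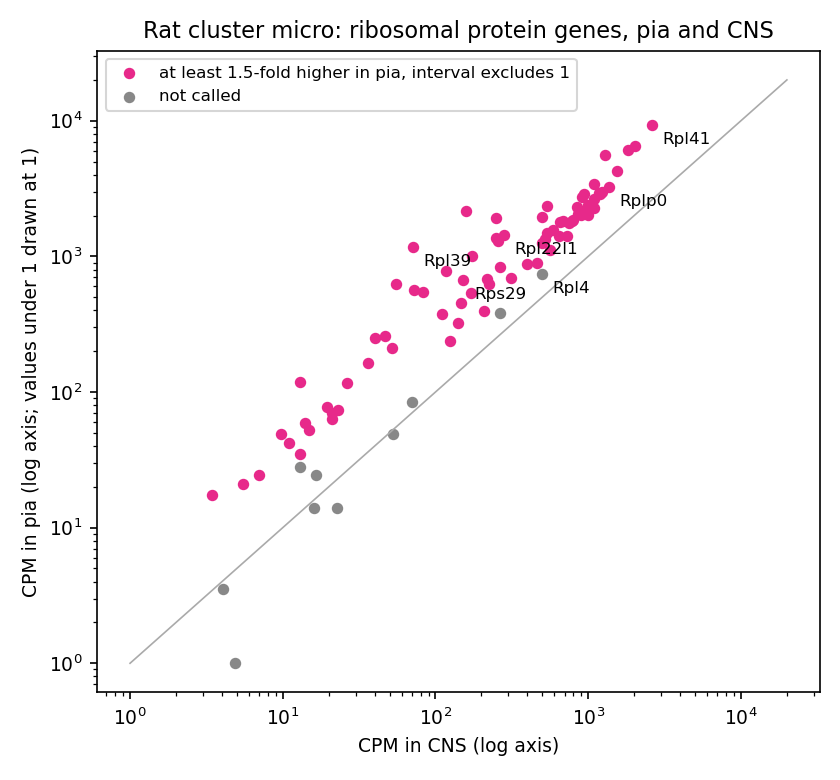
CPM of each ribosomal protein member in the rat cluster micro, in CNS (horizontal axis) and pia (vertical axis), both on log axes, with the line of equal values. Called members lie above the line, from Rpl41 at the top right to low members at the left, and Rpl4 lies near it.

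Other translation genes showed smaller differences in the same cells. Other TOP genes were higher for 8 of 9 and lower for 0 (median 0.93). Elongation factors were higher for 2 of 6 (median 0.66), initiation factors higher for 4 and lower for 3 of 20 (median 0.11), ribosome biogenesis factors higher for 4 and lower for 2 of 29 (median -0.18), and proteins of the mitochondrial ribosome higher for 13 and lower for 4 of 72 (median -0.03). All 13 mitochondrially encoded genes were higher (median 1.89). The 2 groups were not alike in markers: the 5 microglia markers summed to 8847 CPM in CNS and 1384 in pia, and the 5 border macrophage markers to 176 and 2586. In pia cells with at least 2 UMIs of microglia markers (79 of 311) the share was 8.78%, and the log2 ratio to CNS 1.10 in place of 1.55, with 61 members called higher, against 6.59% of all genes, and 0 lower, against 3.89%. The part of the border macrophage markers in the result was not tested. With the same CNS cells as reference, 76 of 88 members were called higher in CP micro, against 9.69% of all genes, and 0 lower, against 14.3%. In dura micro, 69 of 87 were called higher, against 16.1%, and 0 lower, against 8.43%. Of the 106 dura cells, 76 had under 2 UMIs of microglia markers and a share of 11.4%, and the 30 others had 8.85%. Of the 162 CP cells, 64 had under 2 UMIs of these markers and a share of 14.5%, and the 98 others had 12.7%.

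Cluster myeloid 2 ran the same range, from 4.20% in CNS and 6.37% in dura to 13.1% in pia and 14.8% in CP. Between dura and CNS, 28 of 83 members were called higher in dura, against 18.1% of all genes, and 1 lower, against 27.6%. With trimmed-mean (TMM) scaling, which offsets a shift of 0.23 on the log2 scale, the split was 55 higher and 0 lower, against 23.2% and 20.9% of all genes. Rps27l, a p53-responsive relative of Rps27, had 494 CPM in dura and 123 in CNS, 4.02-fold higher (3.27 to 5.00). Rps28 had 432 and 161, Rpl38, which aids translation of Hox transcripts, 464 and 214, and Rpl5, which binds Mdm2 outside the ribosome, 235 and 266. Rpl39 stood at 77.2 CPM in CNS, 160 in dura, 1107 in CP and 1325 in pia. Dura was thus above CNS for this gene, and both were far below pia and CP. Microglia markers summed to 6788 CPM in CNS and 321 in dura, and border macrophage markers to 268 and 8009. Their part in the result was not tested.

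In CD4 Tc the genes were lower in dura than in blood. The share was 22.9% in dura and 29.3% in blood, a log2 ratio of -0.36, and among 95 members 38 were called lower, against 16.7% of all genes, and 4 higher, against 18%. The median member was at -0.54, all genes at -0.01. Lower members included Rpl31l3 (7.55 against 76.8 CPM), the Rps4x entry ENSRNOG00000003201 (41.0 against 207) and the Rps2 entry ENSRNOG00000014179 (52.9 against 265), all minor entries in blood. Abundant members also stood lower: Rplp0 at 8055 against 10723 CPM, Rpl3, which lies at the peptidyl transferase centre, at 4169 against 7037, and Rpl4 at 2444 against 4128. The highest ratios were those of Rps15a (641 against 398 CPM), Rps27l (325 against 207), Rpl36a (963 against 615) and Rps12 (251 against 196), of which Rps12 was under 1.5-fold. Elongation factors were lower for 3 of 6 and biogenesis factors for 11 of 29, with 0 higher in both. Genes of the dissociation stress list were higher in dura for 11 of 11, with Junb at 2812 against 256 CPM. Of the 591 dura cells, 206 had under 2 UMIs of T cell markers and a share of 25.3%, and the 385 others had 21.5%. In blood, 4 of 740 cells had under 2 such UMIs. With at least 2 UMIs of T cell markers required on both sides, the log2 ratio was -0.45. The part of stress genes in the result was not tested.

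Bc1, the larger B cell cluster, differed little in its sum, at 15.8% in dura and 16.7% in blood (log2 ratio -0.07), and more in single members. Of 93 members, 22 were called lower in dura, against 16.7% of all genes, and 5 higher, against 19.1%. Rpl3l, a relative of Rpl3 known mainly from striated muscle, had 326 CPM in dura Bc1, 12.5 in blood and 11.0 in CSF, 26.2-fold higher in dura than in blood (17.4 to 41.2). It had 123 CPM in dura Bc2 and 62.5 in dura pDC, and at most 25.5 in every other reported cluster of any library. Rpl22l1, a paralogue whose expression Rpl22 is known to repress, had 2559 CPM in dura, 1433 in blood and 1049 in CSF, while Rpl22 had 615, 877 and 1137. The order of the 3 libraries was thus opposite for the pair. Proliferation genes were higher in dura for 8 of 11 and lower for 1, with Stmn1 at 1056 against 138 CPM, and stress genes for 10 of 11. Their part in the result was not tested.

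Members did not differ evenly between compartments, and the difference varied with their coding length. Used here were the 55 to 61 members that name a ribosomal protein without a suffix and lie outside the 21 of CSF. Coding lengths were those of the mouse gene of the same symbol (GENCODE M21), taking the longest annotated coding sequence. The log2 ratio of each member was set against this length. This relation was looked for after the values were seen, is given across genes that share libraries, and genes are no replicates. In pia over blood, Spearman's rho was -0.66 to -0.78 in 3 clusters, and in CP over blood -0.73 to -0.87. In NK cells of pia over blood, the 7 members of at most 300 coding bases had a median log2 ratio of 1.78. The 16 members of at least 600 bases had a median of -0.21. Short members include Rpl39, at 1729 CPM in pia, 1499 in CP, 435 in dura, 283 in blood and 229 in CNS, and Rpl38, at 3665, 3544, 957, 836 and 820. Long members include Rpl4, at 1377, 1231, 1697, 2103 and 1497 CPM in the same order, and Rpl3, at 3169, 2410, 3384, 3869 and 3069. Pia and CP lay together on the high side for short members and, for Rpl4, on the low side. In micro, pia over CNS gave -0.62 and CP over CNS -0.80, with short members at 2.13 and long ones at 1.18 in pia. Dura over blood gave -0.26 to -0.62 over 5 clusters. In myeloid1, taken in the reverse order, blood over dura gave 0.65 and CNS over dura 0.57. Over all other genes the same measure lay between -0.27 and 0.17. Pia and CP also had the lowest median UMIs per cell, 981 and 1318. CSF, with a median of 1909, gave -0.49 to -0.55 over blood in 5 clusters, with short members at 1.70 to 2.39. Blood had a library median of 2070.5, above that of CSF. Only members at least 5-fold away in CSF CD4 Tc were left out of these CSF values. Depth and compartment cannot be told apart here.

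**Figure D4:**
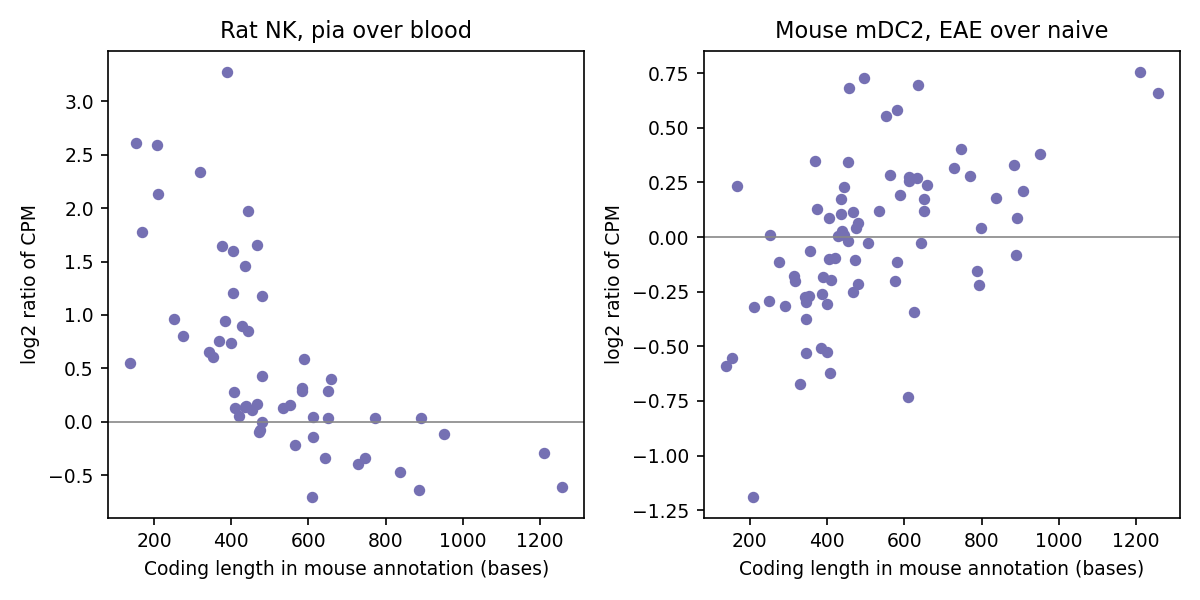
Log2 ratio of CPM (vertical axis) against coding length in bases (horizontal axis), with 1 point per ribosomal protein gene, for rat NK cells in pia over blood (left) and mouse mDC2 in EAE over naive (right). Short genes sit high on the left and low on the right, with rho of -0.78 and 0.58.

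In mouse dura, the question was how immune cells differ between naive mice and mice with EAE. The share ranged from 4.85% in granulo2 to 39.3% in CD4Tc in naive mice, and from 4.78% in granulo2 to 42.5% in CD8Tc in EAE. It was lower in EAE in CD4Tc (39.3% and 29.2%), ILC (38.4% and 32.9%), mDC1 (30.0% and 25.4%) and myeloid3 (24.3% and 19.5%). It was higher in CD8Tc (35.4% and 42.5%), NK (29.6% and 34.9%), Bc (31.4% and 35.6%) and gdTc (27.4% and 31.0%). With naive cells of at least 5722 UMIs, the lowest depth of an EAE cell, NK cells had 33.9% in naive (28 cells), so that a log2 ratio of 0.24 became 0.041. The same floor brought CD8Tc from 0.26 to 0.16 (42 naive cells) and gdTc from 0.18 to 0.11 (28). At this floor the gap in CD4Tc narrowed as well, with fewer than 20 naive cells left. In Treg, mDC2, pDC, BcProg and myeloid2 the groups were within 1 percentage point of each other. All mouse comparisons rest on the same 2 libraries.

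**Figure D5:**
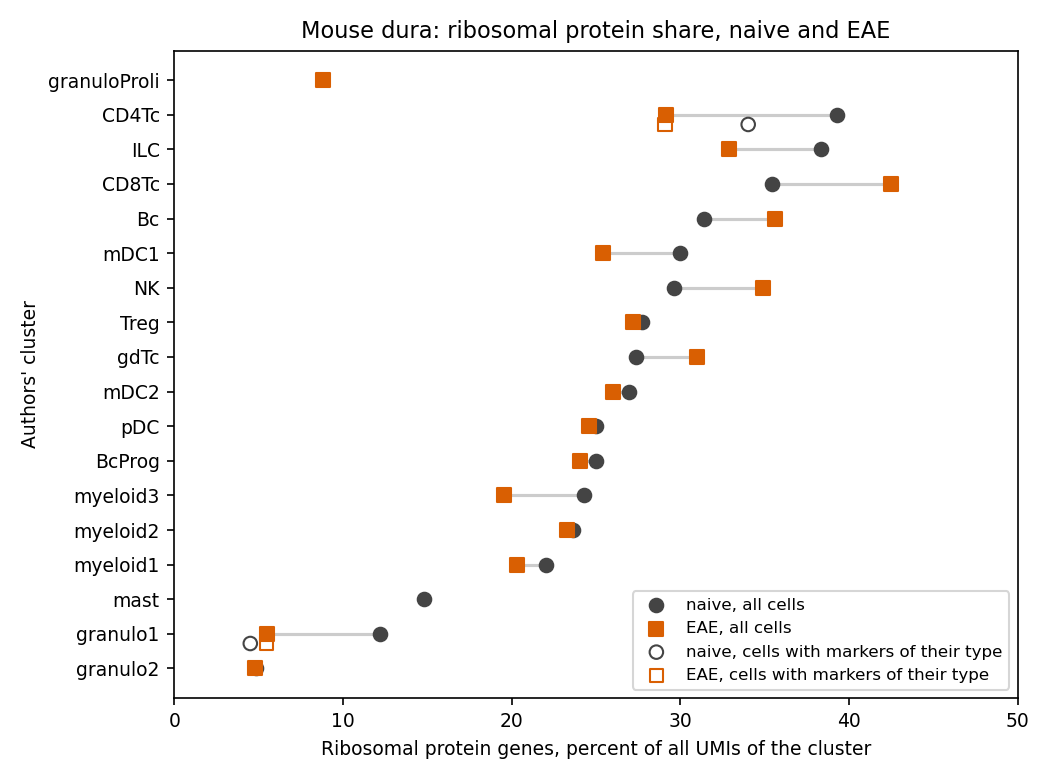
Share of UMIs from ribosomal protein genes in each mouse dura cluster (vertical axis), in percent of all UMIs, in naive (circles) and EAE (squares) mice, for groups of at least 20 cells. Open symbols give CD4Tc and granulo1 cells that carry markers of their type: the gap narrows in CD4Tc, and in granulo1 the naive value falls from 12.2% to 4.50%, below EAE.

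In CD4Tc, 27 of 84 members were called lower in EAE, against 12% of all genes, and 3 higher, against 25.2%. Rps24, a small-subunit protein, had 17862 CPM in naive and 7899 in EAE, Rplp1, an acidic stalk protein, 9118 and 4256, and Rps28 4110 and 1335. Rpl3 (1696 and 2677 CPM), Rpl4 (570 and 933) and Rps27l (115 and 205) were higher. The 6 T cell markers summed to 1198 CPM in naive and 3895 in EAE, innate lymphoid markers to 1817 and 936, and neutrophil markers to 158 and 6530. Of the naive cells, 231 of 353 had under 2 UMIs of T cell markers and a share of 42.1%. The 122 others had 34.0%, against 29.1% in EAE, with 14 members lower, against 10.1% of all genes, and 3 higher, against 18.6%. Over all cells of the cluster, elongation factors were lower for 1 of 6 and other TOP genes for 0 of 9. Of 76 mitochondrial ribosomal proteins, 15 were higher, where 25.2% of all genes were, and 2 lower, where 12% were.

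Granulo1 had 12.2% in naive and 5.46% in EAE, the largest ratio among the 12 clusters compared, with 72 of 85 members called lower, against 21.5% of all genes, and 0 higher, against 3.71%. It reversed among cells with neutrophil markers. Of the 80 naive cells, 45 had under 10 UMIs of neutrophil markers and a share of 36.5%, and the 35 others had 4.50%, so that EAE was higher by 0.28 on the log2 scale, with 26 members higher, against 4.04% of all genes, and 4 lower, against 10.5%. With naive cells of at least 5722 UMIs, the lowest EAE cell, it was higher by 0.21. Depth still differed: marker-carrying cells had a median of 8197 UMIs in naive and 14547 in EAE. Among cells of 5722 to 12000 UMIs the share was 3.79% in naive (20 cells) and 3.70% in EAE (156 cells), so EAE was not higher there. Rps9 (2108 CPM in naive and 2142 in EAE) and Rplp0 (1196 and 1078) were nearest to equal over all cells, and Rplp1 (2228 and 522) and Rpl13a, which can be released from the ribosome to silence inflammatory transcripts, (161 and 38.4) far apart.

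In cluster Bc, 13 of 84 members were called higher in EAE, against 8.72% of all genes, and 4 lower, against 18.4%, over 74 naive and 25 EAE cells. With TMM scaling the split was 29 higher, against 13.8% of all genes, and 2 lower, against 12.4%. Rplp0 had 2940 CPM in naive and 6406 in EAE, 2.18-fold higher (2.00 to 2.38), Rpl3 1378 and 3375, and Rps19 2511 and 5174. Neutrophil markers summed to 177 CPM in naive Bc and 13139 in EAE Bc, and B cell markers to 7801 and 3954. Their part in the result was not tested. In myeloid1 the shares were 22.0% and 20.3%, with 9 of 85 members called lower, against 6.46% of all genes, and 3 higher, against 27.4%. TMM scaling gave 33 lower, against 13.7% of all genes, and 0 higher, against 12.2%. In mDC2 the shares were 26.9% and 26.0%, with 7 of 84 called in each direction, against 36.2% of all genes higher and 7.52% lower. TMM scaling gave 37 lower, against 17.8% of all genes, and 1 higher, against 15.2%. The median of all genes stood at 0.55 before it. Rpl7l1, a nucleolar relative of Rpl7 that acts in ribosome assembly, had 24.0 CPM in naive and 67.9 in EAE mDC2, and 18 of 29 biogenesis factors and 35 of 77 mitochondrial ribosomal proteins were higher there, with 2 lower in each list.

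Mouse short and long members also differed, and EAE over naive had the opposite sign to pia and CP over blood in the rat. Over the 12 clusters with enough cells in both groups, rho between EAE over naive and coding length was 0.42 to 0.58 over 78 members, and -0.01 to 0.28 over other genes. In the 7 clusters whose counts are not given above, 24.6% (BcProg), 14.8% (CD8Tc), 6.94% (ILC), 11.7% (NK), 10.1% (gdTc), 16% (granulo2) and 5.46% (mDC1) of all genes were called lower in EAE. In the same order, 16.7%, 8.3%, 31.3%, 7.61%, 12.3%, 6.32% and 24.5% were called higher. Rps28 was called lower in 11 of 12 clusters, with log2 ratios of -2.01 to -0.53, and Rpl39 in 6, while Rpl3 was called higher in 9 and lower in 1 (-0.86 in granulo1 to 1.39 in granulo2). Rpl4 was higher in 9 and lower in 0. In granulo1 the log2 ratio of Rps28 was -0.30 with naive cells of at least 5722 UMIs. In CD4Tc the median was -0.72 for the 9 members of at most 300 bases and -0.18 for the 24 of at least 600. Depth differed between these libraries too, with a median of 4163.5 UMIs in naive and 11743 in EAE. Short members thus stood relatively higher in the shallower library, as in pia and CP against blood. The part of depth was not tested.

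Within 1 small family, members of like sequence differed between the groups to unlike degrees. Rps27 encodes the zinc-finger protein eS27, Rps27l is its relative, and Rps27rt is a retrogene, a copy made by reverse transcription. Their coding sequences, printed from GENCODE M21 on build GRCm38 with the stop codon, show that a read within them cannot separate the first pair. Transcripts lie at chr3:90212671-90213651 (minus strand), chr9:114982366-114982739 (minus strand) and chr9:66946086-66949512 (plus strand). Capitals in Rps27l mark bases that differ from Rps27 at the same position.
Rps27: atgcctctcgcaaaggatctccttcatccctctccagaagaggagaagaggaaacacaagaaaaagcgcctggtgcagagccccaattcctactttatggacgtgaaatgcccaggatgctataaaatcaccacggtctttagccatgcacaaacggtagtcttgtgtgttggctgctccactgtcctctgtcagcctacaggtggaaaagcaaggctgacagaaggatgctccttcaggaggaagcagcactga
Rps27rt: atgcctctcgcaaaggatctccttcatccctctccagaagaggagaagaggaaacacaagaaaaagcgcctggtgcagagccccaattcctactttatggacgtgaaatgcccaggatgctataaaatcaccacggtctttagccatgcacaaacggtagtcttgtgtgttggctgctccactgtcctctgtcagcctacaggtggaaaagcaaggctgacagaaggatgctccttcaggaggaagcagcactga
Rps27l: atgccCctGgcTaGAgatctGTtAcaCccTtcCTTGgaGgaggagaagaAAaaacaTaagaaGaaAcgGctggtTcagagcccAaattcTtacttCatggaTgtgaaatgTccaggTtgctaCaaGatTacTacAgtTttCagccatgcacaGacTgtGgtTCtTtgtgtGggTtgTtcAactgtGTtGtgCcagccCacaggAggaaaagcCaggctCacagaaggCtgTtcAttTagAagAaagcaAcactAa

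All 255 coding bases of Rps27rt were those of Rps27, with 0 differences, while Rps27l had 61 differences (76.1% identity). Rps27rt was called lower in EAE in 12 of 12 clusters, with log2 ratios of -3.02 (granulo1) to -1.34 (gdTc). With naive cells of at least 5722 UMIs the ratio was -1.44 in granulo1 and -0.56 in Bc, the latter on fewer than 20 naive cells. It had 446 CPM in naive and 58.9 in EAE CD4Tc, 188 and 59.2 in mDC2, 189 and 46.9 in myeloid1 and 315 and 122 in Bc. Rps27 itself had 5331 and 3682 CPM in CD4Tc, 2867 and 2884 in mDC2, 2247 and 2396 in myeloid1 and 4401 and 4901 in Bc, and was called lower in 2 of 12 clusters and higher in 0. Of the UMIs of both genes together, Rps27rt took 7.12% in naive (6.91% to 7.34%, Clopper-Pearson, 3913 of 54929 UMIs) and 1.95% in EAE (1.88% to 2.03%, 2615 of 134121). By cluster it took 5.44% to 9.19% in naive and 1.57% to 2.44% in EAE, with no overlap over the 17 clusters of each. Naive cells of at least 5722 UMIs had 6.69%, so the gap was of like size above the lowest depth of an EAE cell. The share was nearly flat across cell types and split by library. Rps27l followed another pattern: it was called lower in 4 clusters and higher in 2, from -1.58 in mDC2 (920 and 308 CPM) to 1.26 in BcProg.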

How the data were processed

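The authors deposited unnormalized UMI counts for every gene in every barcode. The submitters' processing notes name Cell Ranger 3.1.0 and the builds mm10 and Rnor_6.0, and version 3.0.2 stands in the rat matrix, per the file headers. Both species' tables carry the authors' cluster and tissue or condition for 21187 of 26301 rat and 7355 of 8126 mouse barcodes, and barcodes without one were left out. Multi-mapping settings were not given in the sources used here.

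Within each cluster and library, the UMI counts of all cells were added up per gene and divided by their total (share, or CPM). Ratios carry exact conditional binomial and shares exact Clopper-Pearson 95% intervals. Genes needed 20 UMIs over both sides, and where a side had 0 counts, 3 over the whole group were used in its place. A gene was called at 1.5-fold with an interval that excludes 1. No significance test was run. Named genes were the 5 most abundant members of a species, the 4 highest and 4 lowest log2 ratios among members with 100 UMIs in each comparison, and a fixed list of variants and stalk genes. Rps24, Rps9 and the CSF members were named by size or after their values were seen. Other comparisons needed 50 cells a side. The members, gene lists and comparisons were chosen with earlier results of these data known. The coding-length relation, the CSF set, the Rps27rt share and the marker-carrying cells were chosen after the values were seen. Alternatives were TMM factors, a fold of 2, equal weights per cell, floors on UMIs per cell, leaving out the top 5% of cells, and leaving mitochondrially encoded genes out. The steps were tested on simulated counts. Tools were Python 3.11.15 with numpy 2.4.6, scipy 1.17.1, pandas 2.3.3 and matplotlib 3.10.9, and edgeR 4.0.16 in R 4.3.3 for TMM factors only.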

Additional observations from a re-analysis of the deposited data

Results flagged for a closer look

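Barcodes that carry no cluster were used in no comparison, and ribosomal protein genes were detected in them in every library. They held 12.1% of UMIs in the 48 such barcodes of rat CNS, 13.2% in 83 of CP, 15.9% in 241 of dura, 10.8% in 279 of pia and 7.80% in 115 of blood. In CSF there were 4348 such barcodes, more than the 3152 annotated ones, with 9.15% ribosomal protein UMIs against 30.8% in the annotated cells, and 25.3% mitochondrially encoded UMIs against 5.87%. In the mouse they held 28.5% in 350 naive and 25.7% in 421 EAE barcodes.

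Clusters of 1 species moved in opposite directions under the same contrast, and this difference between clusters was not tested. In EAE over naive, the log2 ratio of the share was -0.43 in CD4Tc, -1.16 in granulo1, -0.22 in ILC and -0.24 in mDC1, and 0.26 in CD8Tc and 0.24 in NK. Depth and cell makeup moved with these values: with naive cells of at least 5722 UMIs granulo1 gave 0.21 and NK 0.041, and granulo1 cells with neutrophil markers gave 0.28. In rat CD4 Tc, dura over blood gave -0.36 and CSF over blood 0.41, both against the same blood cells. Without the 21 members that stood far apart in CSF, CSF over blood gave 0.20.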

How the results depend on the processing

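Depth, cell makeup and the assignment of reads among copies limit these values, and each group is 1 library. No paired analysis was possible because each group is 1 sample. In the order rat Bc1 dura over blood, CD4 Tc dura over blood, CD4 Tc CSF over blood, micro pia over CNS, myeloid 2 dura over CNS, then mouse Bc, CD4Tc, myeloid1, mDC2 and granulo1 EAE over naive, the log2 ratios of the share with equal weights per cell were -0.042, -0.37, 0.42, 1.58, 0.70, 0.23, -0.42, -0.11, -0.042 and -1.93. With mitochondrially encoded genes left out they were -0.048, -0.34, 0.44, 1.62, 0.67, 0.19, -0.41, -0.10 and -0.041 for all but granulo1, which stayed within its interval. With a floor on UMIs per cell (1000 in rat, 5722 in mouse) they were -0.0061 in Bc1, -0.34 in CD4 Tc dura, 1.62 in micro, 0.58 in myeloid 2, -0.24 in CD4Tc, -0.12 in myeloid1 and 0.21 in granulo1, which changed sign. The CD4Tc value rested on fewer than 20 naive cells. Without the top 5% of cells the log2 ratios were -0.060 in Bc1, -0.36 in CD4 Tc dura, -0.42 in CD4Tc, -0.12 in myeloid1, -0.067 in mDC2 and -1.27 in granulo1. In cells with markers of their type they were -0.45 in CD4 Tc dura, 1.10 in micro, -0.23 in CD4Tc, -0.033 in mDC2 and 0.28 in granulo1, again with the sign changed. Without the 21 CSF members, CSF over blood gave 0.20 with 29 called members in place of 50.

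Called members at 2-fold numbered 22 in CD4 Tc dura, 6 in myeloid 2, 5 in Bc, 6 in CD4Tc, 2 in myeloid1 and 4 in mDC2. With TMM scaling they numbered 55 in myeloid 2, 31 in Bc, 33 in myeloid1 and 38 in mDC2. The UMI floor left 18 in CD4Tc and 26 in granulo1, and the marker requirement 17 and 30. The share of all genes called at 2-fold or at the UMI floor was not computed, so those counts cannot be read against it. At the UMI floor the log2 ratios of Rplp1 (0.22) and Rpl13a (0.29) in granulo1 also changed sign. The causes were not tested.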
